A study of Mus musculus with 44 samples.

Results

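Imprinted genes are transcribed from only 1 parental copy in at least some tissues, and the copy to be silenced is marked in the egg or the sperm. The mark is usually DNA methylation laid down over CpG dinucleotides of a control region, and at a smaller set of genes it is histone methylation of the oocyte. Both kinds of mark have to pass through the 2-cell stage, when the embryo replaces oocyte transcripts with its own. The genes described here are 34 imprinted genes, each found by name as 1 row among the 35269 genes of an RNA-seq table of single mouse embryos. Of these, 12 are known for expression from the maternal copy and 22 for expression from the paternal copy. This holds in at least some tissues or for 1 transcript of the gene, and the names of the classes below mean no more. The reads were not divided by parental copy, so every value below is the sum of both copies. Stored oocyte RNA was not separated from new RNA either. Of the 34 genes, 20 passed a filter on low values and could be tested, 8 of the maternally and 12 of the paternally expressed ones.

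The study asked what maternal Dppa2 and Dppa4, a pair of DNA-binding proteins of early embryos and germ cells, contribute to the first transcription of the embryo. Each of the 44 libraries was made from 1 embryo at the 2-cell stage, collected after natural mating, freed of its zona and amplified from poly(A) RNA by Smart-seq2. The 4 groups were collected from 3 crosses of C57Bl/6 mice, with 2 matings per cross. The 14 WT embryos came from control females and wild-type males (10 embryos of mating 1 and 4 of mating 2). In all other groups the mother was conditional knockout (cKO): Zp3-Cre had removed the floxed Dppa2 and Dppa4 in her growing oocytes, so these embryos lacked maternal protein. The 15 HET1 embryos were Dppa2/4+/- offspring of cKO females and wild-type males (7 and 8 embryos of matings 1 and 2). Mating cKO females with heterozygous males gave 5 HET2 embryos, Dppa2/4+/- (4 and 1), and 10 HOM embryos, Dppa2/4-/- (3 and 7). HET2 and HOM shared litters, and the study told them apart by their Dppa2 and Dppa4 transcripts, so for this pair these genes are no independent check. In the other comparisons no litter held embryos of both groups. A difference between groups there rests on 2 litters a side and cannot be fully told apart from litter. P-values below treat the embryos of a litter as separate replicates, and measure the spread between embryos of few litters.

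Levels are given as RPM, the reads of a gene scaled to a common library total, with all counted reads of a library as that total. Totals ran from 247667 to 3163026 reads, with medians of 1770010 in WT, 528166 in HET1, 1108889 in HET2 and 803369 in HOM. Dppa2 stood at 204 to 678 RPM in WT, 40.2 to 345 RPM in HET1 and 0 to 4.15 RPM in HOM, and 4 of the 5 HET2 embryos stood at 101 RPM or less. The embryo labelled HET2 e, the lone HET2 embryo of mating 2, had 472 RPM of Dppa2, inside the WT range, and 54.5 RPM of Dppa4, below the WT range of 80.2 to 356 RPM. The stage was checked with 10 genes of the 2-cell embryo, whose summed level was 287 to 2047 RPM with each gene found, and with 10 oocyte genes, whose sum was 299 to 3007 RPM. The 11 markers of cumulus and granulosa cells summed to 0 to 24.9 RPM, and the gonadotrophin receptor gene Fshr had no read in any embryo. In such whole-embryo libraries, fewer cells of a kind and less RNA per cell cannot be told apart.

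The start regions of 6 members are shown, because the first 4 belong to genes that differed between litters below and the last 2 to genes without a single read. They are the bases before the RefSeq transcript start that lie outside every GENCODE exon (build GRCm38.p6 of RefSeq, 5′ to 3′ on the strand of the gene), and capitals mark CpG dinucleotides. The positions are chr17:12769707-12769956 (minus strand) for Igf2r, chr7:6730432-6730577 (plus strand) for Usp29, chr2:152686898-152687034 (plus strand) for Mcts2, chr8:80880520-80880748 (minus strand) for Gab1, chr6:58907127-58907261 (minus strand) for Nap1l5 and chr12:109452573-109452822 (plus strand) for Dlk1.
Igf2r: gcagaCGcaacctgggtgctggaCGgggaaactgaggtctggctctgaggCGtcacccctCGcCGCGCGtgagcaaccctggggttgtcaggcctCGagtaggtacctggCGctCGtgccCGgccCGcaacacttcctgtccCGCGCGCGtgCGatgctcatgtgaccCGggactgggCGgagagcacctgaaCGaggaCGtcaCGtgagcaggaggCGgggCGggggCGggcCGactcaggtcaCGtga
Usp29: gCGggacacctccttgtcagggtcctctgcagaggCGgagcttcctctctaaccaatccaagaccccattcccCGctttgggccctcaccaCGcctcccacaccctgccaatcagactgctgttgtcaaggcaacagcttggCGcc
Mcts2: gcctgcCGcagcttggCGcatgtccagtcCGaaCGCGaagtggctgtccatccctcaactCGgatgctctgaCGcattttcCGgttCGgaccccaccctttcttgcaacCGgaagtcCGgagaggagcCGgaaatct
Gab1: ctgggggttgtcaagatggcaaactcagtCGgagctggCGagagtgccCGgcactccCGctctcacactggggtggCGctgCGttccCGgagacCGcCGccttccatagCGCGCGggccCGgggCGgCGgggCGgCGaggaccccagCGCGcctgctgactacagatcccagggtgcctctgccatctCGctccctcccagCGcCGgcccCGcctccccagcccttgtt
Nap1l5: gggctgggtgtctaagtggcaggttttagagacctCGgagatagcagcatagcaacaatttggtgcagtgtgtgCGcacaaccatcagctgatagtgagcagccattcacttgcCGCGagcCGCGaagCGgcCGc
Dlk1: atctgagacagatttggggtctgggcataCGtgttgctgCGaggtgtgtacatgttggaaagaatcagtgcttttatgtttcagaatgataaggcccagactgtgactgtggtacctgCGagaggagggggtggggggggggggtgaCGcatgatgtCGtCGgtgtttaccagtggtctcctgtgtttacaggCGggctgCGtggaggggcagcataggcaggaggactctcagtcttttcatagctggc

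The Usp29 stretch is the whole gap of 146 bases between the divergent start sites of Usp29 and Peg3. That of Mcts2 lies inside the gene H13, which carries the retrogene Mcts2 within an intron. It held 12 CpG in 137 bases, against 27 in 250 bases for Igf2r, 23 in 229 for Gab1, 5 in 146 for Usp29, 8 in 135 for Nap1l5 and 8 in 250 for Dlk1. RefSeq windows of 300 bases, 250 before and 50 after a start, were found for 29 of the 34 members. The letters TGCCGC, which the imprint-protecting zinc finger protein ZFP57 recognises when methylated, were searched on both strands. They stood in 12 of the members' 47 windows (25.5%) and in 11.6% of all 32851 windows. Windows of a gene can overlap and hold the same match, as with Mest. Counted by gene, 11 of the 29 members had a match, and no such count was made for all genes. The letters contain a CpG themselves, and an excess in members was not tested. In the stretches printed, Mcts2 and Nap1l5 held 1 match each and the other 4 held none. The median ratio of observed to expected CpG was 0.59 in members' windows and 0.38 in all windows. These are descriptions of letters, and no binding or methylation was measured here.

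Most of the 34 genes were either found in nearly every embryo or in nearly none. At least 1 read was found in 39 or more of the 44 embryos for 14 genes, 6 of the maternally and 8 of the paternally expressed ones. Among them Mest, Grb10, Mcts2 and Kcnq1ot1 had reads in all 44. Another 5 genes were found in 11 to 38 embryos, 11 genes in 1 to 10, and 4 genes in none. A single embryo had reads of 12 to 22 members (median 18), of 7 to 20 at 3 reads or more. The medians were 18.5 members in WT, 18 in HET1, 19 in HET2 and 18 in HOM, with ranges of 12 to 20, 16 to 21, 15 to 21 and 16 to 22. The shallowest library, HET1 l, had 16 members and the deepest, WT e, had 17. Had every library been sampled down to the smallest total, 9.85 to 18.7 members would be expected per embryo (medians of 15.7, 16, 16.2 and 16.1 in WT, HET1, HET2 and HOM). All members together took 0.0245% to 0.113% of the reads of an embryo.

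**Figure D1:**
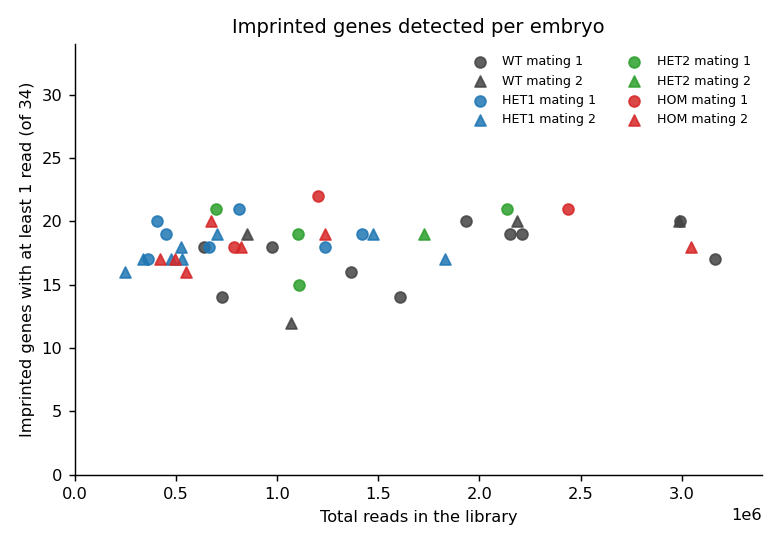
Imprinted genes with at least 1 read (vertical axis, of 34) against total reads of the library (horizontal axis); each point is 1 embryo, coloured by group, circles for mating 1 and triangles for mating 2. Embryos of all 4 groups lie between 12 and 22 genes over the whole range of depth, and the lowest point, at 12, is a WT embryo of mating 2.

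The embryo with the fewest members, WT k of mating 2, stood apart from the rest. Over all genes it also had the fewest with reads, 9169, where the 44 embryos ranged from 9169 to 14199. The low count was thus not particular to imprinted genes. WT k had 12 members with reads from 1065975 reads, none of Usp29, Snrpn, Zrsr1 and Impact, and 1 read of Mcts2. It is the only embryo without Usp29, Snrpn or Zrsr1. Without it, 0 members were called in HOM, HET1 or HET2 against WT, as with it, beside 0.045%, 7.65% and 0.045% of all genes.

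No read of H19, Mirg, Dlk1 or Nap1l5 was found in any embryo. H19 and Mirg are noncoding RNAs, Dlk1 encodes a membrane-bound growth regulator, and Nap1l5 is a retrogene of the nucleosome assembly family. With 54739684 reads in all, a count of 0 allows a level of up to 0.0548 RPM over the 44 embryos (3 reads). In single embryos the same limit ranged from 0.948 RPM in the deepest to 12.1 RPM in the shallowest. These limits, and those of any other count here, cover counting error only.

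Igf2, the fetal growth factor, had reads in 3 embryos, 4 at most. Ndn and Magel2, MAGE family genes of the Snrpn region, each had reads in 1 embryo, but the HET2 embryo with Magel2 held 15 of them. Sgce had a single read in each of 3 embryos, and Peg10, its divergent neighbour, had reads in 9 embryos with 22 at most. The start sites of Sgce and Peg10 are 98 bases apart. Airn, the noncoding RNA antisense to Igf2r, had reads in 8 embryos and 3 at most, while Igf2r was found in 43. Meg3 was found in 25 embryos with at most 15 reads, while Rian, transcribed from the same maternal domain, was found in 2 and Mirg in none. Zim1, a zinc finger gene near Peg3, had reads in 10 embryos (12 at most), and the neuronal gene Nnat in 9 (21 at most). Of the members imprinted by histone methylation of the oocyte, Slc38a4, an amino acid transporter, had reads in 5 embryos with 3 at most, and Sfmbt2, a Polycomb-associated gene, in 8 with 49 at most. Gab1, the third of them, was found in 27. Sfmbt2 reads fell in 5 of 14 WT embryos and in 1 embryo of each other group.

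**Figure D2:**
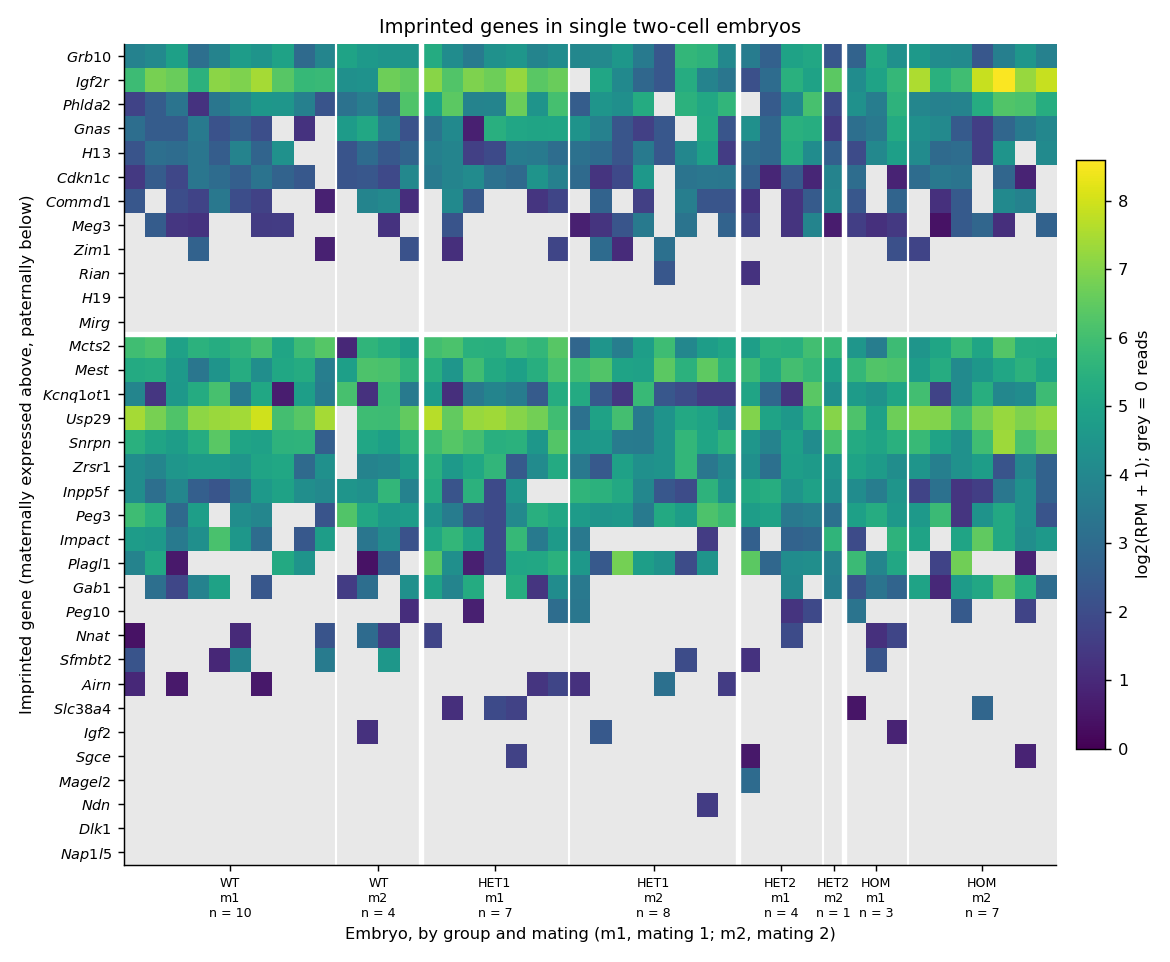
Level of the 34 imprinted genes (rows, maternally expressed above and paternally expressed below, ordered by detection) in each of the 44 embryos (columns, by group and mating), as log2(RPM + 1); grey cells have 0 reads. The upper rows of each block are filled in nearly all embryos and the lower rows are grey, with H19, Mirg, Dlk1 and Nap1l5 grey throughout.

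The remaining 18 genes exceeded 3.63 RPM in at least 11 embryos. This level is the common floor of the tests, the highest value that a count of 0 takes in any library. Scaled to exon length, the retrogene Mcts2 had the highest median in WT, at 50.4 RPKM (RPM per kilobase of exon). It was followed by Snrpn at 15.1, Igf2r at 9.22, Mest at 9.04, Phlda2 at 8.16, Usp29 at 5.68 and Zrsr1 at 4.52 RPKM. Impact, Grb10, Cdkn1c, Inpp5f and Peg3 lay between 2.66 and 1.57 RPKM, and H13, Gab1, Gnas and Commd1 between 0.663 and 0.386 RPKM. Kcnq1ot1, counted over a single exon of 93092 bases, had 0.198 RPKM, and Plagl1 had 0.0214 RPKM. Single embryos spread widely, for example from 1.03 to 88.2 RPKM for Mcts2, and the WT ranges of every pair of neighbours in this order overlapped.

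Some of these counts can include reads of a neighbour or relative. Genes on opposite strands can share reads because Smart-seq2 does not mark the strand, and genes on the same strand or of similar sequence can share them in any case. Zrsr1 lies inside Commd1 on the opposite strand and shares 412 exonic bases with it, which is 9.17% of its exons. Cdkn1c shares 30.7% of its exons with the antisense gene Gm44732, Snrpn 27.3% with Gm38393 and 10% with Snurf on its own strand, Mest 23.1% with Copg2, Usp29 14.3% with Zim3, and Gnas 13.1% with Gm20721. Igf2 shares 62.8% with Gm49394, also on its own strand. Kcnq1ot1, though it shares only 0.13% of its exons with those of Kcnq1, lies wholly inside that gene on the opposite strand. Mcts2 aligned with its parent gene Mcts1 over 674 bases at 84% identity, and Snrpn with Gm5802 over 700 bases at 95.3%. Zrsr1 aligned with Zrsr2 over 1123 bases at 80.4%, and Kcnq1ot1 with Vmn2r53 over 5760 bases at 86%. The values of these genes are uncertain to that extent.

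Of the maternally expressed genes, Igf2r encodes the receptor that removes insulin-like growth factor 2. Its lowest, median and highest levels were 18.8, 85.9 and 172 RPM in WT, 0, 38.8 and 151 RPM in HET1, and 17.2, 107 and 377 RPM in HOM. The 5 HET2 embryos had 3.28, 7.21, 29.9, 43 and 85.2 RPM. HOM held the highest values, HET1 fell into a high and a low set described by litter below, and all groups overlapped. Grb10, an adaptor that dampens insulin signalling, had 6.89, 21 and 31 RPM in WT, 4.04, 17.2 and 50.8 RPM in HET1, and 4.07, 16.7 and 35.6 RPM in HOM. In HET2 it had 4.06, 5.41, 11.2, 30.1 and 34.5 RPM, so that no group stood out. Cdkn1c, which encodes an inhibitor of cyclin-dependent kinases, had 0, 4.42 and 15.3 RPM in WT, 0, 9.47 and 23.3 RPM in HET1, and 0, 3.46 and 9.84 RPM in HOM. The HET2 embryos had 0.902, 0.907, 4.3, 5.15 and 13.3 RPM, and the median was highest in HET1.

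Phlda2, a gene that restrains growth of the placenta, had higher medians in HET1 and HOM than in WT. It had 1.39, 9.14 and 74.3 RPM in WT, 0, 30.7 and 99.8 RPM in HET1, and 11.5, 28.9 and 75.5 RPM in HOM. The HET2 embryos had 0, 2.9, 4.51, 15.7 and 68 RPM. The HET2 median stood below that of WT, and the ranges overlapped. The difference from WT was 1.40 ± 0.48 (log2 RPM, SE; 15 HET1 against 14 WT embryos; adjusted p = 0.066, limma) in HET1 and 1.47 ± 0.54 (10 HOM embryos; adjusted p = 0.16) in HOM. It was -0.09 ± 0.67 in HET2 (adjusted p = 0.99, limma). None passed the threshold of 0.05. Without WT mating 2, which holds the WT embryo with 74.3 RPM, the HET1 difference was 1.62 (adjusted p = 0.044, limma). Over 16 alternatives it ran from 0.85 (without WT mating 1, adjusted p = 0.68) to 1.86 (without HET1 mating 2, adjusted p = 0.11, limma), and 3 passed the threshold. With litter as a random effect the adjusted p was 0.7.

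Gnas, the alpha subunit of the stimulatory G protein, had 0, 4.68 and 34.8 RPM in WT, 0, 12.8 and 41.6 RPM in HET1, and 2.03, 10.4 and 37.4 RPM in HOM. Its HET2 values were 1.74, 6.31, 18.7, 39.9 and 43 RPM. H13, which encodes a signal peptide peptidase, had 0, 5.89 and 19.3 RPM in WT, 1.89, 8.15 and 28.8 RPM in HET1, and 0, 11.3 and 28.2 RPM in HOM. For both genes the WT median was the lowest of the 4, and the groups overlapped. The HET2 embryos had 5.22, 6.31, 7.49, 17.2 and 38.7 RPM of H13. Commd1, a regulator of copper export and NF-kB, had 0, 2.29 and 15.5 RPM in WT, 0, 2.12 and 16 RPM in HET1, and 0, 2.71 and 15.8 RPM in HOM. In HET2 it had 0, 1.4, 1.43, 4.53 and 14.5 RPM, and its median lay below the floor of 3.63 RPM in every group.

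Of the paternally expressed genes, Usp29, of the ubiquitin-specific protease family, had 0, 103 and 254 RPM in WT, 8.15, 61.4 and 202 RPM in HET1, and 29.3, 115 and 152 RPM in HOM. The HET2 embryos had 22.9, 30.7, 48.1, 123 and 129 RPM. Peg3, which encodes a zinc finger protein and starts from the opposite side of the 146 bases printed above, had 0, 20.9 and 75 RPM in WT, 2.77, 22.9 and 72.9 RPM in HET1, and 1.48, 23.6 and 56.7 RPM in HOM. Medians of Peg3 hardly moved between these 3 groups, whereas that of Usp29 was lower in HET1 than in WT and HOM. The HET2 embryos had 8.11, 10, 11.8, 26.7 and 29.8 RPM of Peg3. The differences of HET1 from WT were -0.80 ± 0.45 for Usp29 and 0.41 ± 0.49 for Peg3 (log2 RPM, SE; adjusted p = 0.29 and 0.67, limma).

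Mest, an alpha/beta hydrolase gene, had reads in all 44 embryos, with 9.29, 35.7 and 72.6 RPM in WT, 22.2, 44.8 and 88.2 RPM in HET1, and 16.3, 36 and 76.4 RPM in HOM. Its HET2 values were 29, 35.2, 52.6, 57.1 and 64.4 RPM. Snrpn, which encodes a small nuclear ribonucleoprotein of the spliceosome, had 0, 32.5 and 83.8 RPM in WT, 10.6, 41.6 and 78.9 RPM in HET1, and 19.3, 49.1 and 162 RPM in HOM. Its HOM values reached highest, and its HET2 values of 13.5, 17.2, 22, 28.6 and 65.5 RPM were mostly low. Mcts2, a retrogene of a translation re-initiation factor, had 0.938, 45.9 and 80.5 RPM in WT, 6.11, 41.6 and 81 RPM in HET1, and 11.5, 35.4 and 77.9 RPM in HOM. In HET2 it had 27.2, 41.5, 45.1, 52.7 and 63.5 RPM, all inside the ranges of the other groups. Zrsr1, a retrogene related to the splicing factor U2AF, had 0, 20.3 and 34.2 RPM in WT, 4.27, 20.2 and 50.8 RPM in HET1, and 3.65, 18.4 and 30.8 RPM in HOM. Its HET2 values were 8.12, 18.3, 21.4, 24.5 and 27.2 RPM, and the 4 medians of Zrsr1 stood between 18.4 and 21.4 RPM.

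Other genes of the paternal class were found in some embryos and missing from others of the same group. Plagl1, a zinc finger gene that restrains the cell cycle, had reads in 7 of 14 WT, 14 of 15 HET1, 5 of 5 HET2 and 6 of 10 HOM embryos. Its levels were 0, 0.167 and 36.7 RPM in WT, 0, 21.1 and 110 RPM in HET1, 0, 1.55 and 105 RPM in HOM, and 6.31, 13.3, 17.2, 18.1 and 85.7 RPM in HET2. HET1 and HET2 thus had the higher medians, and the groups overlapped. Plagl1 differed from WT by 1.36 ± 0.57 in HET1 (log2 RPM, SE; adjusted p = 0.14, limma), and by 3.34 (adjusted p = 0.014) when reads were weighted for their counting error with limma voom. Over 16 alternatives it ran from 1.08 (without WT mating 2, adjusted p = 0.32, limma) to that value, and 3 passed the threshold. With litter as a random effect the adjusted p was 0.73. A gene near the floor is compressed on the scale of the main test, which sets every value under 3.63 RPM to that level. Impact, a regulator of translation, had 0, 13.6 and 69.6 RPM in WT, 0, 2.77 and 53.2 RPM in HET1, and 0, 27.4 and 89.4 RPM in HOM, with 0, 5.15, 5.73, 6.35 and 48.7 RPM in HET2. Gab1, a signalling adaptor, had reads in 8 of 14 WT, 7 of 15 HET1, 2 of 5 HET2 and 10 of 10 HOM embryos. It had 0, 2.23 and 30 RPM in WT, 0, 0 and 39.9 RPM in HET1, and 0.984, 17.1 and 86.5 RPM in HOM, and in HET2 it had no reads in 3 embryos and 12.2 and 15.7 RPM in the others. HOM thus had the highest median of both genes. For Gab1 the difference of HOM from WT was 1.33 ± 0.52 (adjusted p = 0.19, limma), and it was -0.02 without HOM mating 2, which holds the HOM embryos with the highest levels.

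Kcnq1ot1, the long antisense RNA of the Kcnq1 domain, had 0.622, 18.4 and 67.5 RPM in WT, 1.23, 4.52 and 55 RPM in HET1, and 2.3, 22.9 and 62.1 RPM in HOM. The HET2 embryos had 1.43, 6.31, 19.1, 31.8 and 82.5 RPM. Its HET1 median was the lowest, and its ranges overlapped. Inpp5f, a phosphoinositide phosphatase gene, had 3.79, 16.5 and 51.2 RPM in WT, 0, 18.9 and 48.9 RPM in HET1, 1.48, 8.97 and 21.6 RPM in HOM, and 18.5, 21.5, 29, 36.5 and 39.7 RPM in HET2. Here HOM held the lowest median and HET2 the highest.

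**Figure D3:**
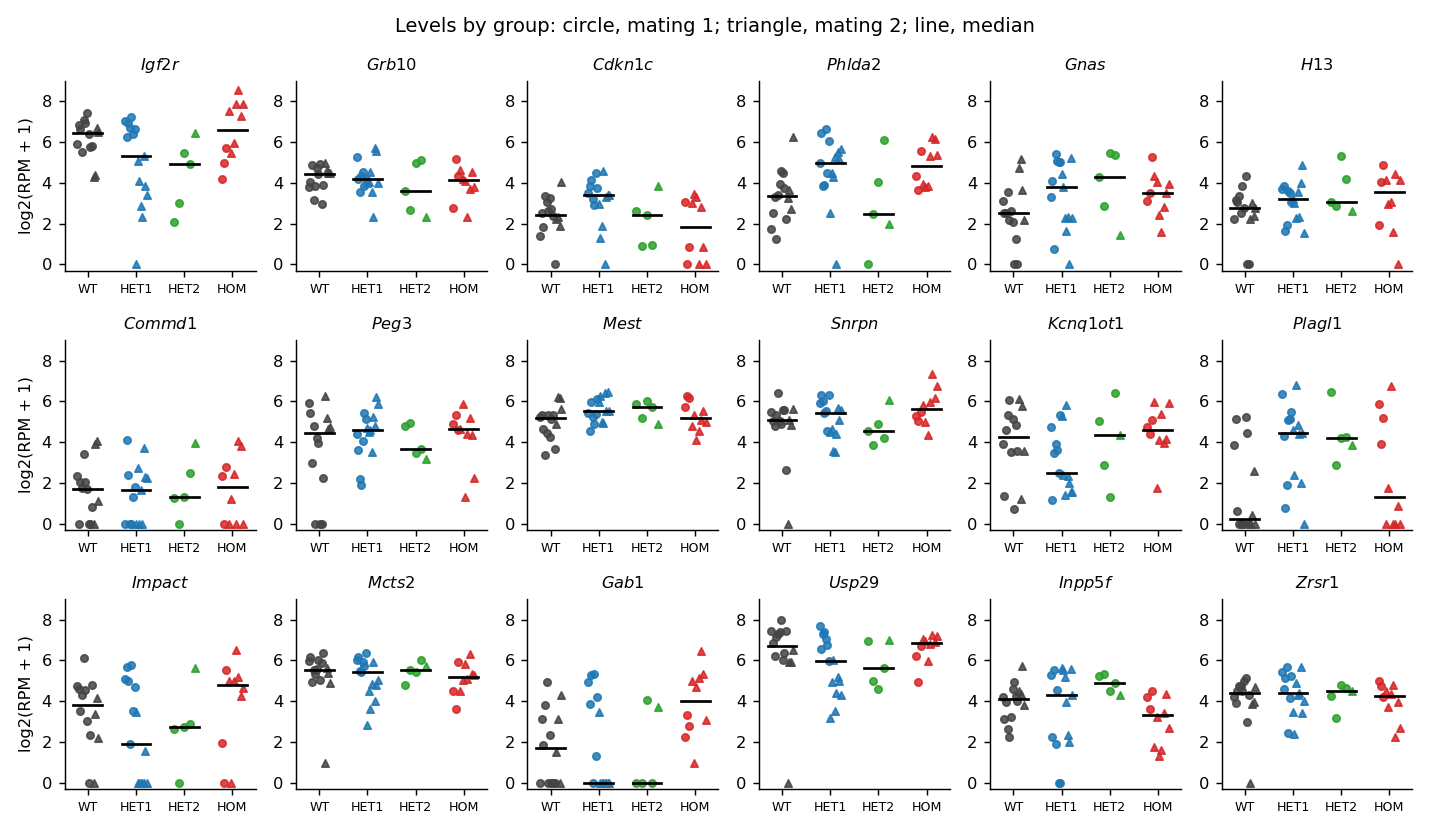
Level of the 18 imprinted genes found most often (panels), as log2(RPM + 1), in the 14 WT, 15 HET1, 5 HET2 and 10 HOM embryos; each point is 1 embryo (circles, mating 1; triangles, mating 2) and the line is the median of the group. The groups overlap in every panel, and the points of Igf2r in HET1 separate by mating.

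None of the 20 members tested passed the threshold between genotype groups in the main test. HOM was set against WT to ask for the loss of both maternal and zygotic protein: 0 of 20 tested members were called, where 0.045% of the 13338 genes tested were called in either direction (limma, adjusted p under 0.05). At an unadjusted p under 0.05, 4 members differed, Phlda2, Gab1 and Snrpn with higher and Sfmbt2 with lower values in HOM, near the 16.5% of all genes at that threshold, and limma voom called 0. Sfmbt2 exceeded the floor in 5 embryos, 4 of them WT, so it passed the filter through WT and its lower values in the other groups are no result. The differences of members ran from -0.78 to 1.47 (log2 RPM), with a median of 0.32 beside 0.17 for all genes tested. The 95% intervals, without adjustment for the number of genes, reached 0.36 to 1.27 to either side of the estimate, with a median of 0.94. The narrowest was that of Meg3, which exceeded the floor in 10 embryos. A change of a size within these intervals was not detectable here, and a larger one could be missed too. Phlda2 at 1.47 (interval 0.40 to 2.55) and Gab1 at 1.33 (0.28 to 2.38) were not called.

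HET1 against WT compared embryos that lacked maternal protein and had 1 zygotic copy of each gene with embryos that had both copies, so loss of maternal protein and a lower zygotic dose cannot be told apart. Medians were 68.7 against 336 RPM for Dppa2 and 53 against 139 RPM for Dppa4. Again 0 of 20 members were called, while 6.51% of all genes were called. At an unadjusted p under 0.05, 6 members differed, with higher values of Cdkn1c, Phlda2, Mest and Plagl1 and lower values of Igf2r and Sfmbt2, beside 21.9% of all genes. Limma voom called 1 (Plagl1), beside 7.47% of all genes. For HET2 against WT, 0 of 20 were called beside 0.0375% of all genes, with 1 at an unadjusted p under 0.05 (Igf2r, -1.85 ± 0.74 by limma; 9.01% of all genes) and 0 by limma voom. HOM against HET1, which compares embryos without and with a zygotic copy, called 0 of 20 members beside 0.0375% of all genes, 3 at an unadjusted p under 0.05 (Igf2r and Kcnq1ot1 higher, Cdkn1c lower; 13.1% of all genes) and 0 by limma voom. Within the shared litters, HOM against HET2 called 0 of 20 beside 0.015% of all genes, with 1 at an unadjusted p under 0.05 (Inpp5f, -1.14 ± 0.51; 4.81% of all genes) and 0 by limma voom. HOM, HET1 and HET2 share the WT embryos in these comparisons. Leaving out WT mating 2 gave 3 calls in HET1 against WT (Mest and Phlda2 higher, Usp29 lower), beside 7.46% of all genes. Leaving out HET1 mating 1 gave 2 in the same comparison (Usp29 and Igf2r, lower), beside 19.2% of all genes, and 4 in HOM against HET1 (Usp29, Gab1, Igf2r and Impact, higher), beside 17.6%.

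**Figure D4:**
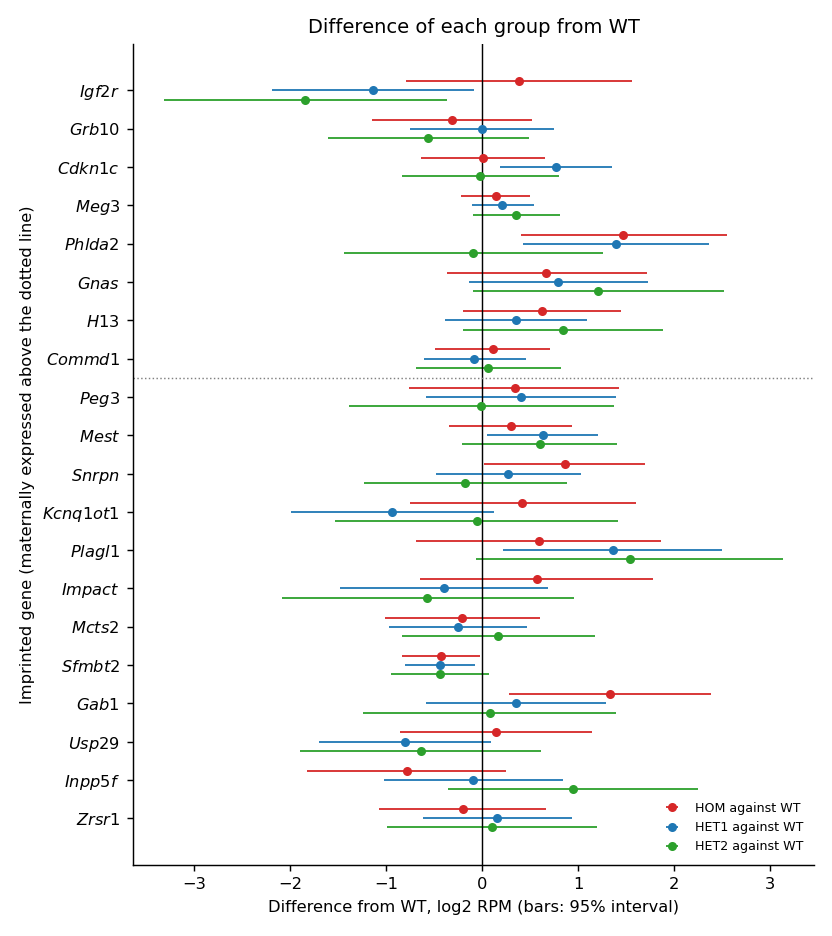
Difference from WT (horizontal axis, log2 RPM) of the 20 imprinted genes tested (rows; maternally expressed above the dotted line), for HOM in red, HET1 in blue and HET2 in green; points are estimates and bars 95% intervals without adjustment for the number of genes. Differences in HOM run from -0.78 to 1.47, and no gene passed the threshold in any of the 3 comparisons.

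Imprinted genes called between litters of a group numbered 5 of 20 in HET1, 1 in WT and 0 in HOM. In HET1, all 5 were higher in mating 1, in a comparison in which 21.9% of all genes were called (2920 genes, 70.5% of them higher in mating 1). A count of 5 in 20 is close to that background. Igf2r had the largest difference. Its HET1 values ran from 75.2 to 151 RPM (median 103) in mating 1 and from 0 to 38.8 RPM (median 11.4) in mating 2, and the litters did not overlap. The difference was 3.25 ± 0.50 (log2 RPM, mating 1 minus mating 2, SE; n = 7 and 8; adjusted p = 5.5e-06, limma). Zygotic Dppa4 also did not overlap between these litters, at 55 to 164 RPM in mating 1 and 10.6 to 53 RPM in mating 2. Dppa2 was at 63.8 to 345 RPM (median 145) and 40.2 to 85.5 RPM (median 48.6). Their part in the differences of the imprinted genes was not tested.

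Usp29 followed, with 61.4 to 202 RPM (median 131) in HET1 mating 1 and 8.15 to 65 RPM (median 25) in mating 2. In 6 of 7 embryos of mating 1 it exceeded every embryo of mating 2, and the difference was 2.43 ± 0.46 (adjusted p = 0.00012, limma). Peg3, on the other side of the shared start region, had medians of 15.5 and 26 RPM in matings 1 and 2, and its difference of -1.15 ± 0.63 (adjusted p = 0.19, limma) had the opposite sign. Impact had 2.77 to 53.2 RPM (median 30.3) in mating 1. In mating 2 it had 0 to 10.2 RPM with a median of 0, a difference of 2.42 ± 0.63 (adjusted p = 0.0041, limma). In mating 1, 6 of 7 embryos stood above all of mating 2.

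Gab1 had 0 to 39.9 RPM (median 17.2) in HET1 mating 1, while in mating 2 only 1 of 8 embryos had reads, at 10.2 RPM. Its difference was 1.82 ± 0.58 (adjusted p = 0.019, limma), and the litters overlapped. Mcts2 had 41.6 to 81 RPM (median 59.9) in mating 1 and 6.11 to 60.6 RPM (median 24.1) in mating 2, a difference of 1.47 ± 0.43 (adjusted p = 0.011, limma). In 3 of 7 embryos of mating 1 it was above all of mating 2. Gab1 was not called without HET1 embryo c or e (1.59, adjusted p = 0.051, and 1.58, adjusted p = 0.057), nor without a filter on low values (1.82, adjusted p = 0.065, limma). Mcts2 was not called after thinning to the smallest total (1.24, adjusted p = 0.064, limma). Igf2r, Usp29 and Impact were called in all 24 alternatives tried.

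The WT litters differed at 1 of 20 members, where 1.75% of all genes were called. Usp29 had 64.1 to 254 RPM (median 149) in mating 1 and 0, 59, 59.6 and 90.8 RPM in mating 2, a difference of 1.97 ± 0.52 (n = 10 and 4; adjusted p = 0.034, limma). Without WT k, the embryo with no Usp29 read, it was 0.91 (adjusted p = 0.67). It was also not called without WT e (1.94, adjusted p = 0.053) or WT g (1.86, adjusted p = 0.057), without a filter on low values (1.97, adjusted p = 0.097), after thinning (1.85, adjusted p = 0.06) or with array weights (1.26, adjusted p = 0.16, limma). Limma voom called 3 members, Usp29 and, with lower values in mating 1, Mest and Peg3, beside 5.05% of all genes, while the main test gave -1.07 ± 0.41 (adjusted p = 0.17) for Mest and -1.74 ± 0.72 (adjusted p = 0.22) for Peg3. Mest medians were 29.3 and 58.9 RPM, and Peg3 medians 10.6 and 30.4 RPM.

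In HOM, 0 of 20 members were called between the litters, where 2.32% of all genes were called. At an unadjusted p under 0.05, 4 members differed, near the 18.3% of all genes at that threshold, and limma voom called 0. Igf2r had 17.2, 30.6 and 51.5 RPM in mating 1 and 43.3 to 377 RPM (median 186) in mating 2, a difference of -2.30 ± 0.67 (n = 3 and 7; adjusted p = 0.05 after rounding, just above the threshold, limma). It was called without HOM e (-2.60, adjusted p = 0.021) or HOM f (-2.51, adjusted p = 0.027), and not without the others. Gab1 had 3.69, 5.82 and 8.91 RPM in mating 1 and 0.984 to 86.5 RPM (median 31.1) in mating 2. Its difference was -1.93 ± 0.77 (adjusted p = 0.16, limma). Mest, with 52.1 to 76.4 RPM in mating 1 and 16.3 to 45.4 RPM in mating 2, did not overlap between the litters and differed by 1.17 ± 0.47 (adjusted p = 0.16, limma). Plagl1 had 14, 34.9 and 57 RPM in mating 1 and a median of 0 in mating 2, a difference of 2.37 ± 1.01 (adjusted p = 0.19, limma). Of the HET2 embryos in these litters, the 4 of mating 1 had 3.28 to 43 RPM of Igf2r and 0 to 6.35 RPM of Impact, and HET2 e of mating 2 had 85.2 and 48.7 RPM. Mest was at 35.2 to 64.4 RPM in the 4 and 29 RPM in HET2 e. For Gab1 (0 to 15.7 RPM in the 4, 12.2 RPM in HET2 e) and Plagl1 (6.31 to 85.7 and 13.3 RPM), HET2 e lay inside the range of the 4.

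**Figure D5:**
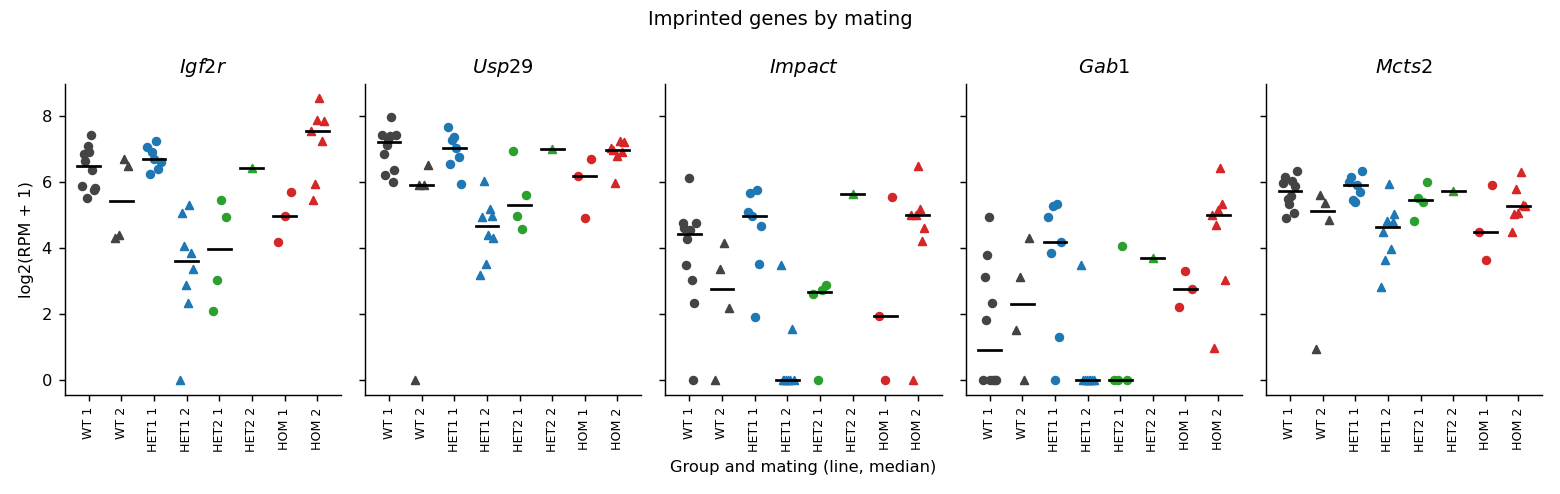
Levels of the 5 imprinted genes called between HET1 litters, as log2(RPM + 1), in each group and mating (1 or 2 after the group name); each point is 1 embryo and the line is the median. Igf2r does not overlap between HET1 matings 1 (75.2 to 151 RPM) and 2 (0 to 38.8 RPM), and in HOM its matings overlap (17.2 to 51.5 RPM in mating 1 and 43.3 to 377 RPM in mating 2).

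Oocyte genes were summed in each litter, and the sums were not tested. The sum of the 10 oocyte genes was 522 to 1422 RPM (median 878) in HET1 mating 1 and 1167 to 2886 RPM (median 2455) in mating 2, where Igf2r, Usp29, Impact, Gab1 and Mcts2 were lower. It was 2010 to 2093 RPM in HOM mating 1 and 494 to 1097 RPM in mating 2. In WT it was 299 to 1569 RPM (median 721) in mating 1 and 935 to 3007 RPM (median 1257) in mating 2, with overlap, and in HET2 it was 1254 to 2483 RPM in mating 1 and 484 RPM in embryo e. None of the 10 oocyte genes was at 0 in any group. Between the HET1 litters 2 of the 10 were called, near the 21.9% of all genes, Oosp1 and Ooep, both lower in mating 1 (-2.70 ± 0.34 and -1.51 ± 0.46, log2 RPM; adjusted p = 2.6e-07 and 0.014, limma), while 3 had higher values in mating 1. Between the HOM litters 1 was called, Oosp1, higher in mating 1 (1.83 ± 0.45, adjusted p = 0.027, limma; 2.32% of all genes), and between the WT litters 0 (1.75% of all genes). The 2-cell genes stood at medians of 613 and 1250 RPM in HET1 matings 1 and 2, 855 and 602 RPM in HOM, and 507 and 531 RPM in WT. Of the 10, 7 were called lower in mating 1 in HET1, beside 21.9% of all genes in either direction. In HOM 2 were called higher in mating 1, Tcstv1 and Usp17lc (2.92 and 3.14, adjusted p = 0.03 and 0.026, limma; 2.32% of all genes), and in WT 0 were called (1.75%). The part of embryo stage in the litter differences was not tested. Markers of cumulus and granulosa cells summed to at most 22.2 RPM in HET1 mating 1 and 4.04 RPM in mating 2, with 7 of the 11 at 0 in either litter.

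RNA of genes that set and keep imprints was present in these embryos, and stored oocyte RNA was not separated from new RNA. All 26 genes of a list of imprint regulators were tested, 23 of them with reads in 39 or more embryos. In HET1 against WT, 4 of the 26 were called, 2 higher and 2 lower, beside 6.51% of all genes. Dnmt3l, the cofactor of the de novo DNA methyltransferases, rose from a median of 10.7 to 32.6 RPM, by 1.60 ± 0.41 (adjusted p = 0.012, limma). Dppa3, which protects maternal methylation in the zygote, rose from 1040 to 1719 RPM, by 0.71 ± 0.21 (adjusted p = 0.03, limma). Ctcf, the insulator protein of the H19 region, and Suz12, a Polycomb subunit, fell, with differences of -0.57 ± 0.15 (adjusted p = 0.017, limma) and -0.49 ± 0.16 (adjusted p = 0.048). All 4 calls were lost with litter as a random effect (adjusted p = 0.49 for Dnmt3l, 0.53 for Dppa3, 0.47 for Ctcf and 0.52 for Suz12, limma), and no gene at all was called with it or with total reads as a covariate. With that covariate Dnmt3l differed by 0.90 and Dppa3 by 0.29. Suz12 was also not called without WT k (-0.45, adjusted p = 0.06, limma). No regulator was called in HOM against WT, HET2 against WT or HOM against HET1. Between the HET1 litters 8 of the 26 were called, 4 in each direction, beside 21.9% of all genes. The largest difference was that of Tet3, lower in mating 1 (-1.44 ± 0.40, adjusted p = 0.0071, limma). Tet3 encodes the dioxygenase that oxidises 5-methylcytosine in the zygote.

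A second list held 48 other imprinted genes, of which 46 were in the table and 19 could be tested. Reads were found in 39 or more embryos for 10 of the 46 and in none for 7. Th, the tyrosine hydroxylase gene, was the only one of the 19 called between groups, in a comparison where 6.51% of all genes were called, with medians of 15.1 RPM in WT and 36.1 RPM in HET1 and a difference of 1.52 ± 0.41 (adjusted p = 0.018, limma). The call was lost with litter as a random effect (1.47, adjusted p = 0.51, limma) and with total reads as a covariate (1.11, adjusted p = 0.32). Between WT litters 3 of the 19 were called, Blcap, Osbpl5 and Slc22a3, all lower in mating 1, beside 1.75% of all genes. None of the 3 was called without WT k. Blcap, the gene that surrounds Nnat, differed by -2.10 ± 0.46 (adjusted p = 0.0072, limma), and by -1.81 without WT k (adjusted p = 0.12). Osbpl5 was at -1.01 with and -0.20 without WT k (adjusted p = 0.04 and 0.88, limma), and Slc22a3 at -0.84 and -0.68 (adjusted p = 0.024 and 0.3). Both lay near the floor of 3.63 RPM, with medians of 0 RPM in WT mating 1. In WT mating 2 the medians were 4.25 RPM for Osbpl5 and 7.54 RPM for Slc22a3, and in HET1, HET2 and HOM they were under the floor. Osbpl5 was also not called without any single one of WT b, d, e, f, g, h, i or j, nor Slc22a3 without WT n (-0.62, adjusted p = 0.1, limma). In HET1 litters 3 of the 19 were called, beside 21.9% of all genes, and the largest difference was that of Jade1, which carries an oocyte histone mark like Gab1, with 97.1 RPM in mating 1 and 29 RPM in mating 2 (medians; 1.67 ± 0.45, adjusted p = 0.0054, limma). Tssc4 was higher and Gpr1 lower in mating 1, by 1.54 ± 0.54 (adjusted p = 0.033) and -1.37 ± 0.46 (adjusted p = 0.028, limma). Tssc4 was not called without HET1 b, d, e, g, h, j or n (1.23 to 1.49), nor Gpr1 without HET1 h, l or o (-1.06 to -1.20).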

How the data were processed

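Per the labels and the study's methods, reads of single embryos (Smart-seq2, Nextera XT, paired ends) were trimmed with Trim Galore 0.6.5 and cutadapt 2.3 and mapped with HISAT2 2.1.0 to GRCm38. The authors counted reads over genes and deposited log2 RPM for 35269 genes, in which a gene with 0 reads stands at the value of 0.9 read. Reads were recovered from these values, and 99.9997% lay within 0.05 read of a whole number. Every deposited column belonged to a labelled embryo. The coordinates of all 34 genes equalled those of GENCODE M21.

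Values under 1.86 log2 RPM, the highest value of 0 reads in any library, were set to it, because the deposited value of 0 reads (from -1.81) moves with depth. Genes above it in 5 or more of the 44 embryos (13338) were fitted with limma 3.58.1 (R 4.3.3; lmFit, eBayes with trend), with Benjamini-Hochberg adjustment over all of them and a threshold of 0.05. Group comparisons used the embryos of all 4 groups, HOM against HET2 used their shared litters with litter as a term, and litter comparisons had a term for each group and mating. No count test was used, since the deposited unit is log2 RPM; limma voom on the recovered reads was an alternative. Percentages, levels per length (GENCODE exon union), CpG and motif counts were computed with Python 3.11.15, similar transcripts with BLAST 2.17.0, and figures with matplotlib 3.10.9. The fitting was checked on simulated data with 200 changed genes.

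The members and lists were chosen with earlier results of these data known. Genes above the floor in 11 or more embryos or called in any comparison were described with their values, the other members by detection, and up to 4 genes of each further list by the size of their called difference.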

Additional observations from a re-analysis of the deposited data

Results flagged for a closer look

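For the 18 genes described by level, the lowest and highest embryo of HET2 and HOM were compared with the others of the group (Dixon's ratio of the gap to the range, on log2 RPM with the common floor). Of 36 groups 4 had an embryo apart from the rest. The nominal rate of this ratio, about 1 in 20, assumes unrelated values without a common floor. These values share embryos and a floor, so no excess over chance can be read from the 4. In HET2 the same embryo, e of mating 2, was the high one for 3 genes: Impact at 5.61 with the next embryo at 2.67, Commd1 at 3.86 (next 2.18) and Cdkn1c at 3.74 (next 2.36). In HOM, 1 embryo had Kcnq1ot1 at the floor of 1.86 with the next at 3.87.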

How the results depend on the processing

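The count of imprinted genes called in HET1 against WT, 0 in the main test, was 2 with deposited values and no common floor (13.4% of all genes), 1 with log2(RPM + 1) (6.55%), 1 with limma voom (7.47%), 1 with array weights (8.1%), 2 without HET1 mating 1 (19.2%) and 3 without WT mating 2 (7.46%). Array weights gave 1 in HET2 against WT (0.69%). For HOM against HET1 it was 1 without mating 1 of the HET2 and HOM litters (2.2%) and 4 without HET1 mating 1 (17.6%). Between WT litters, 1 in the main test became 0 without a filter on low values (0.817%), 0 after thinning to the smallest total (1.31%) and 3 with limma voom (5.05%). With array weights it was 1 (1.27%), but Commd1 (-1.34, lower in mating 1) in place of Usp29. It was 0 to 1 without each WT embryo in turn, an alternative chosen after seeing the data like those without each HET1 or HOM embryo. Between HOM litters it was 1 with median-ratio size factors (2.32%) and 1 with array weights (6.56%), both Igf2r, and 0 to 2 without each HOM embryo in turn. In HET1 litters it was 4 to 6 over all 24 alternatives, and the share of all called genes higher in mating 1 was 56.1% with size factors, which moved the median of all genes from 0.18 to 0.06. Gab1 in HOM against WT reversed to -0.02 without HOM mating 2. Over all genes, the count called ran from 0 to 2563 in HET1 against WT (868 in the main test), 2 to 132 in HOM against WT (6), 0 to 92 in HET2 against WT (5), 2 to 2354 in HOM against HET1 (5), 2 to 4 in HOM against HET2 (2), 49 to 674 in WT litters (234), 1924 to 3205 in HET1 litters (2920) and 23 to 875 in HOM litters (309). The causes were not tested.

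The labels do not say that the mating number pairs litters of different crosses, nor which animals were mated. Deviations of same-numbered litters over 6919 genes correlated at 0.45 for WT and HET1, -0.44 for WT and HOM and -0.76 for HET1 and HOM. With the mating number as a replicate block, 0 members were called in HOM against WT, HET1 against WT, HET2 against WT and HOM against HET1, and 0 in HOM against HET2 with no replicate block. Counts of 0 in the first 4 do not weigh the same, since the main test called 0.045%, 6.51%, 0.0375% and 0.0375% of all genes in them. With litter as a random effect 0 members were called in the same 4 comparisons. In HET1 against WT 0 of all genes were called with it, so the count of 0 members there is no result about imprinted genes.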
